A study of Mus musculus with 8 samples.

Results

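The DNA replication machinery was followed here through 46 named genes, from the proteins that mark replication origins to those that finish the new strands. Each gene was read from its own probe set on the array, a probe set being a group of short probes for 1 transcript. Where a gene had several probe sets annotated to its symbol alone, the one with the highest mean signal was used. By this rule 45 of the 46 genes were found, among 18193 genes with such a probe set. Chaf1a was not analysed here. All 45 passed the filter on dim probe sets, which left 11189 genes for testing.

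Splenocyte RNA of male mice (C57/BL6) was hybridised to Affymetrix Mouse 430 2.0 arrays, with 1 array per mouse. The groups were HMGA1a transgenic mice (TG) of 12 months, wild-type littermates (WT) of 12 months, TG mice of 2 months and WT mice of 2 months, with 2 mice in each and 8 arrays in all. HMGA1a belongs to the chromatin proteins that bend DNA by gripping AT-rich stretches. According to the series' design text all TG mice come to have lymphoid tumours, which are well established by the older age and not yet present at the younger one. The promoter that drives the transgene and the cells that express it are not given in the sources used here. Wherever a group's 2 values are given, the value of the replicate 1 mouse stands before that of the replicate 2 mouse.

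Before a cell copies its DNA, the origin recognition complex together with CDC6 and CDT1 loads the MCM2-7 helicase onto origins, a step called licensing that geminin (Gmnn) blocks once it is done. In S phase the DBF4-dependent kinase CDC7 and further factors convert the loaded helicase into the active form with CDC45 and the GINS complex. Polymerases alpha, delta and epsilon then make the new strands, helped by the sliding clamp PCNA, its loader RFC and the single-strand binding protein RPA. Many of these genes are textbook targets of E2F transcription factors, and in the spleen their transcripts come mainly from dividing lymphocytes and from red and white blood cell precursors. In bulk RNA such as this, a larger share of dividing cells and more transcript per cell cannot be told apart.

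Values are probe set signals (intensities on a linear scale), and differences are in log2(signal + 16), a scale that understates the change of dim genes. Median signals of the 8 arrays lay between 44.9 and 49.5, and precision is limited by the small number of arrays. Arrays with the same replicate number deviated together, so differences are also given within replicate 1 and within replicate 2. B cell markers were present on every array, with a summed signal of 8 genes from 12109 to 24698. The replicate 1 WT mouse of 2 months stood apart by its exocrine pancreas genes, whose summed signal over 5 genes was 9404 there and 354 to 612 on the other 7 arrays.

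At 12 months, most replication genes had higher signals in TG than in WT spleens. Of the 45 genes, 37 had a higher mean in TG mice, where 45.2% of all genes tested did, and 35 were higher within both replicates, against 26.9% of all genes tested. For 24 of the 45 genes (53.3%) the 2 TG mice were both higher than either WT mouse, a pattern seen in 14.3% of all genes tested. The reverse pattern held for 1 of the 45, Orc5, and for 19.9% of all genes tested. The median difference of the 45 genes was 0.34 (0.40 within replicate 1 and 0.25 within replicate 2), beside a median of -0.03 over all genes tested. The single differences ran from -0.21 to 0.78, the highest being a 1.72-fold difference.

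No replication gene passed the test at this age. In limma's fit across all genes the adjusted p-values of the 45 genes ran from 0.586 to 0.999, and of all 11189 genes 0 passed (0%). At an unadjusted p under 0.05 there were 5 replication genes higher in TG mice (2.59% of all genes tested) and 0 lower (5.14%). The 5 were Rfc5, Mcm10, Rfc4, Gins2 and Pcna. With the replicate number as a block, 12 replication genes had such a p, where 7.26% of all genes tested were higher with such a p, and 0 passed after adjustment, where 0.0447% of all genes tested did (limma, smallest adjusted p = 0.0861, for Rfc5). With the replicate 1 TG mouse left out, the median difference was 0.22. Leaving out the replicate 2 TG mouse gave 0.41, and leaving out the replicate 2 WT mouse 0.33.

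**Figure D1:**
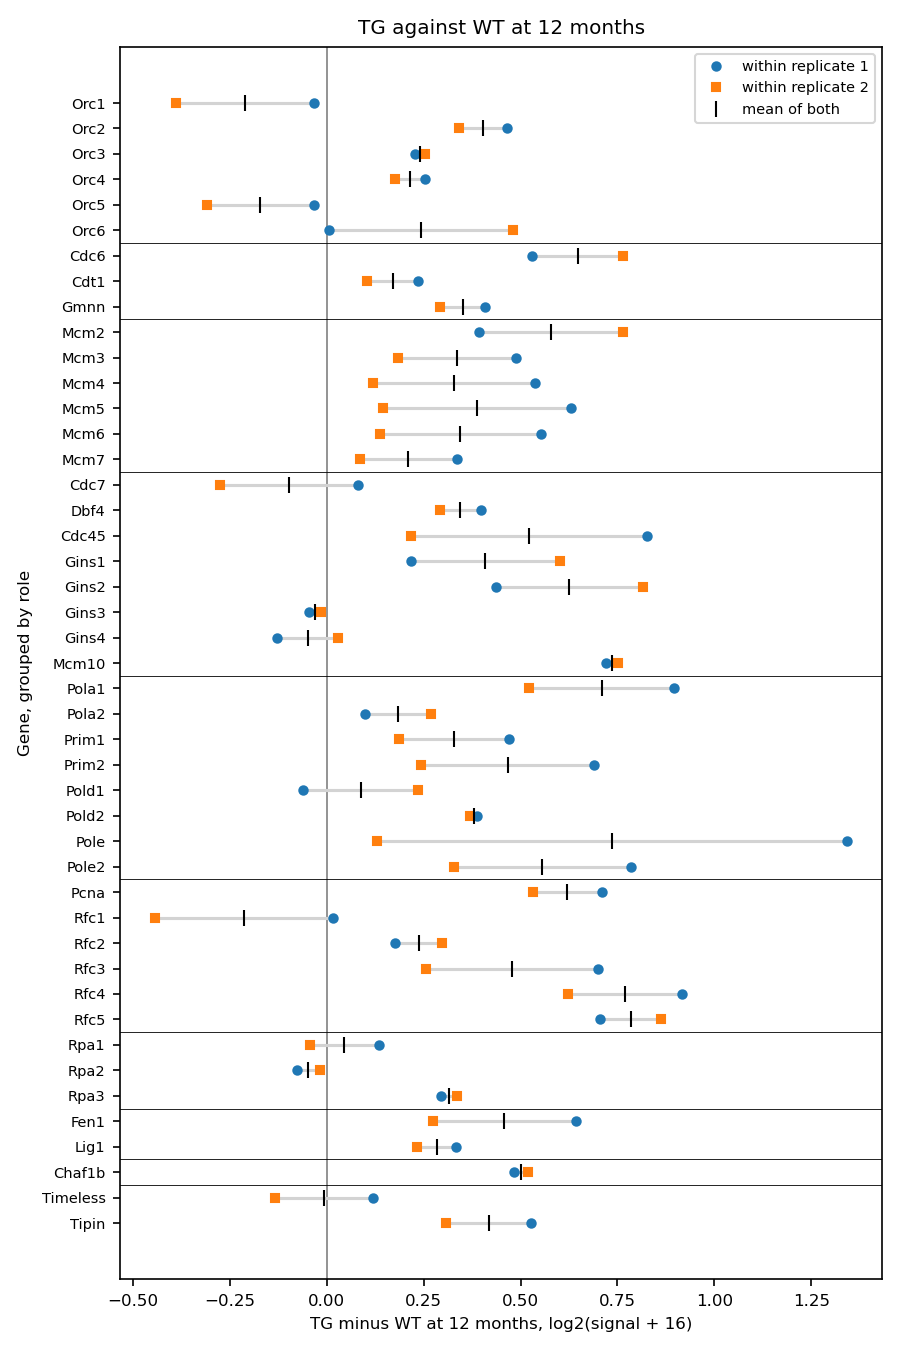
Difference between TG and WT mice at 12 months for 45 replication genes (horizontal axis, log2(signal + 16)), within replicate 1 (circles), within replicate 2 (squares) and as the mean of both (bars), with genes grouped by role. For 35 of the 45 genes both points lie right of 0.

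Other measures differed between the same groups. The Gapdh control had a signal ratio of its 3' over its 5' probes, which tells of RNA quality, of 0.843 and 1.21 in TG mice, against 1.25 and 1.73 in WT mice. The same ratio of the actin control was 1.20 and 1.10 in TG mice, against 1.48 and 1.31 in WT mice. Macrophage and monocyte markers were lower, with all 7 measured genes lower in TG mice without overlap and a summed signal of 9315 and 12743 in TG mice, against 17419 and 16761 in WT mice. Of 7 dendritic cell markers 5 were lower without overlap, with sums of 1264 and 1457 in TG mice, against 1738 and 2255 in WT mice. Of 8 B cell markers 3 were lower without overlap (Cd22, Fcer2a and Cr2) and 0 higher. Cr2 had 425 and 564 in TG mice, against 1352 and 1607 in WT mice. The B cell sums overlapped, at 12109 and 23364.5 in TG mice, against 17886 and 24698 in WT mice. Immature thymocyte markers summed over 6 genes to 435 and 515 in TG mice, against 798 and 902 in WT mice. Most of this sum was Cd1d1, with 337 and 387 in TG mice, against 571 and 708 in WT mice. Rag1 had 0.737 and 6.28 in TG mice, against 10.6 and 10.4 in WT mice, and Rag2 was dimmer still, so both were near background. Ccr9 had 31.0 and 34.4 in TG mice, against 148 and 117 in WT mice. Of the 6 genes 3 were lower without overlap (Rag1, Cd1d1 and Ccr9) and 1 was higher, the dim Rag2. Dntt and Ptcra overlapped between the groups. The markers thus did not all go 1 way, and a loss of these cells was not tested. Markers of germinal centre B cells, a dividing type, summed over 6 genes to 1224 and 428 in TG mice, against 704 and 470.1 in WT mice. T cell markers summed over 8 genes to 7899 and 3549 in TG mice, against 2823 and 3617 in WT mice. The summed signals of blood cell precursor markers overlapped between the groups, while single markers did not all overlap, with 1 of 8 erythroid genes lower (Hba-a1) and 1 of 9 neutrophil precursor genes higher (Mpo) in TG mice without overlap. Hba-a1 had 4.59 and 6.20 in TG mice, against 21.0 and 43.1 in WT mice, all under the dim filter's level of 45.3. Mpo had 410 and 557 in TG mice, against 406 and 152 in WT mice, so it barely separated. The erythroid list of 8 genes summed to 9036 and 12769 in TG mice, against 11594 and 10899 in WT mice. The neutrophil precursor list of 9 genes summed to 9471 and 21385 in TG mice, against 10327 and 5866 in WT mice. Most of the latter sum was S100a8 and S100a9, with S100a8 at 3525 and 7598 in TG mice, against 3653 and 2303 in WT mice. The part of RNA quality and of these cell types in the differences was not tested.

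The helicase genes lay on the same side throughout. For all 6 subunit genes, Mcm2 to Mcm7, both TG signals exceeded both WT signals at 12 months. Mcm5 had 1904 and 1255 in TG mice, against 1226 and 1134 in WT mice, a difference of 0.39 ± 0.24 (SE; limma, adjusted p = 0.746). Mcm4 had 1026 and 723 in TG mice, against 702 and 664 in WT mice (0.33 ± 0.22). Mcm6 had 1624 and 1178 in TG mice, against 1103 and 1069.9 in WT mice (0.34 ± 0.26). The replicate 1 TG mouse was far above the WT mice for these 3 genes, and the replicate 2 TG mouse only slightly. Mcm7 had 3027 and 2968 in TG mice, against 2394 and 2799 in WT mice (0.21 ± 0.27). Mcm2, picked here after its values were seen, had the opposite order of the TG mice, with 621 and 791 in TG mice, against 469 and 459 in WT mice (0.58 ± 0.48). The median of the 6 genes was 0.51 within replicate 1 and 0.14 within replicate 2.

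Genes for helicase loading and its control lay mostly on the same side. Cdc6, which encodes the ATPase that helps load the helicase, had 267 and 212 in TG mice, against 180.1 and 118 in WT mice (0.65 ± 0.43). Gmnn, the licensing inhibitor, had 538 and 484 in TG mice, against 401 and 392 in WT mice (0.35 ± 0.23). Loader and inhibitor were thus both higher without overlap. Cdt1, the partner of CDC6, had 1546 and 1269 in TG mice, against 1310.3 and 1179 in WT mice, and these groups overlapped (0.17 ± 0.18).

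The genes of the origin recognition complex were divided. Orc2 had 243 and 211 in TG mice, against 171 and 163 in WT mice (0.40 ± 0.18). Orc4 had 278 and 262 in TG mice, against 231 and 230.3 in WT mice (0.21 ± 0.20). Both were higher without overlap. Orc3 had 284 and 359 in TG mice, against 239.8 and 298 in WT mice, with overlap (0.24 ± 0.24). Orc5 was lower without overlap, at 224 and 199 in TG mice, against 229 and 251 in WT mice (-0.17 ± 0.20). Orc1 and Orc6 overlapped between the groups, with differences of -0.21 and 0.24.

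Among the 8 genes that turn the loaded helicase into a working one, 4 were higher in TG mice without overlap. Mcm10, a helicase activator, had 227 and 199.9 in TG mice, against 131 and 112 in WT mice (0.74 ± 0.26, 0.72 within replicate 1 and 0.75 within replicate 2). Gins2 had 199 and 179.5 in TG mice, against 143 and 95.1 in WT mice (0.63 ± 0.24). Gins1 had 132 and 136 in TG mice, against 111 and 84.1 in WT mice (0.41 ± 0.27). Cdc45 was the other gene without overlap, with a difference of 0.52. The 4 GINS subunits, which work as 1 complex, were not alike on these arrays: Gins3 had 86.3 and 70.9 in TG mice, against 89.7 and 71.7 in WT mice, and Gins4 had 231 and 269 in TG mice, against 254 and 263 in WT mice. The kinase gene Cdc7 had 205 and 214 in TG mice, against 193 and 262 in WT mice, whereas its activator Dbf4 had a difference of 0.34, with overlapping groups.

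All 8 polymerase and primase genes had a higher mean in TG mice at 12 months, 4 of them without overlap. Pole2, the second subunit of the leading-strand polymerase epsilon, had 299 and 224 in TG mice, against 167 and 175 in WT mice (0.56 ± 0.27). Pole, its catalytic subunit, had 269.7 and 137 in TG mice, against 96.6 and 123 in WT mice (0.74 ± 0.41). That difference was 1.34 within replicate 1 and 0.13 within replicate 2, so it came mainly from 1 mouse pair. Pola1, the catalytic subunit of polymerase alpha, had 257 and 123 in TG mice, against 131 and 80.6 in WT mice, with overlap (0.71 ± 0.35). Prim1, the catalytic subunit of primase, and Pold2, a subunit of polymerase delta, were the others without overlap, with differences of 0.33 and 0.38. Prim2 (0.47) and Pola2 (0.18) overlapped. Pold1, the catalytic subunit of polymerase delta, had 426 and 681 in TG mice, against 445 and 577 in WT mice.

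Of the 5 genes with an unadjusted p under 0.05, 3 belonged to the clamp and its loader. Rfc5, a small subunit of the loader, had 409.6 and 441 in TG mice, against 245 and 235 in WT mice, a difference of 0.78 ± 0.19 (1.72-fold; 0.70 within replicate 1 and 0.86 within replicate 2; limma, unadjusted p = 0.00331, adjusted p = 0.586). Rfc4 had 290.0 and 166 in TG mice, against 146 and 102 in WT mice (0.77 ± 0.28). Pcna, the sliding clamp, had 4982 and 4903 in TG mice, against 3042 and 3389 in WT mice (0.62 ± 0.24). In all 3 genes both TG mice were above both WT mice. Rfc2 was higher without overlap as well (0.24), and Rfc3 had a difference of 0.48 with groups that just overlapped. Rfc1, the large subunit, had 313 and 249.5 in TG mice, against 309 and 345 in WT mice (-0.21 ± 0.19).

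**Figure D2:**
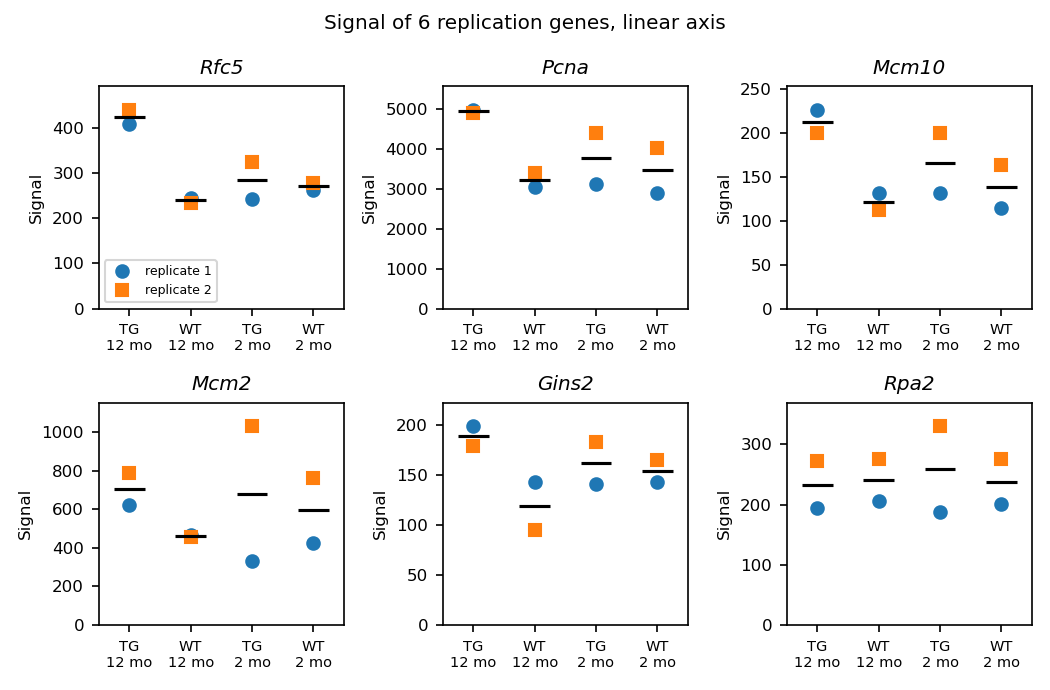
Signal (vertical axes, linear and from 0) of Rfc5, Pcna, Mcm10, Mcm2, Gins2 and Rpa2 in the 4 groups, with the replicate 1 mouse as a circle, the replicate 2 mouse as a square and the mean as a bar. For all but Rpa2 both TG mice of 12 months are above both WT mice of 12 months, and for Mcm2 the replicate 2 TG mouse of 2 months is the highest of all, at 1031.

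For the genes of single-strand binding the result depended on the probe set. Rpa1 had 2508 and 2337 in TG mice, against 2282 and 2410.5 in WT mice, and its other probe set had 894 and 860.4 in TG mice, against 763 and 806 in WT mice (a difference of 0.16). Rpa2 had 194 and 273 in TG mice, against 205 and 276 in WT mice, and its other probe set had 207 and 224 in TG mice, against 112 and 147 in WT mice (0.68). Rpa3 had 393 and 300.4 in TG mice, against 317 and 235 in WT mice (0.32 ± 0.21). The groups overlapped for the 3 probe sets used, and the other probe sets of Rpa1 and Rpa2 were higher in TG mice without overlap.

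Among the genes that finish and package the new strands, Lig1, the ligase that seals Okazaki fragments, had 513 and 569.8 in TG mice, against 404 and 483 in WT mice (0.28 ± 0.27). Fen1, the flap endonuclease, had 738 and 1064 in TG mice, against 466 and 878 in WT mice, with overlap (0.46 ± 0.36). It was higher within both replicates, by 0.64 and 0.27, and with the replicate block its unadjusted p was 0.00777 in limma. Chaf1b, a subunit of the histone chaperone CAF-1, had 135 and 120.3 in TG mice, against 91.9 and 79.0 in WT mice, without overlap (0.50 ± 0.22). Of the pair that protects stalled forks, Tipin had 545 and 349 in TG mice, against 373 and 279 in WT mice (0.42 ± 0.26), and Timeless had 206 and 250.1 in TG mice, against 188 and 276 in WT mice. Both overlapped between the groups.

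**Figure D3:**
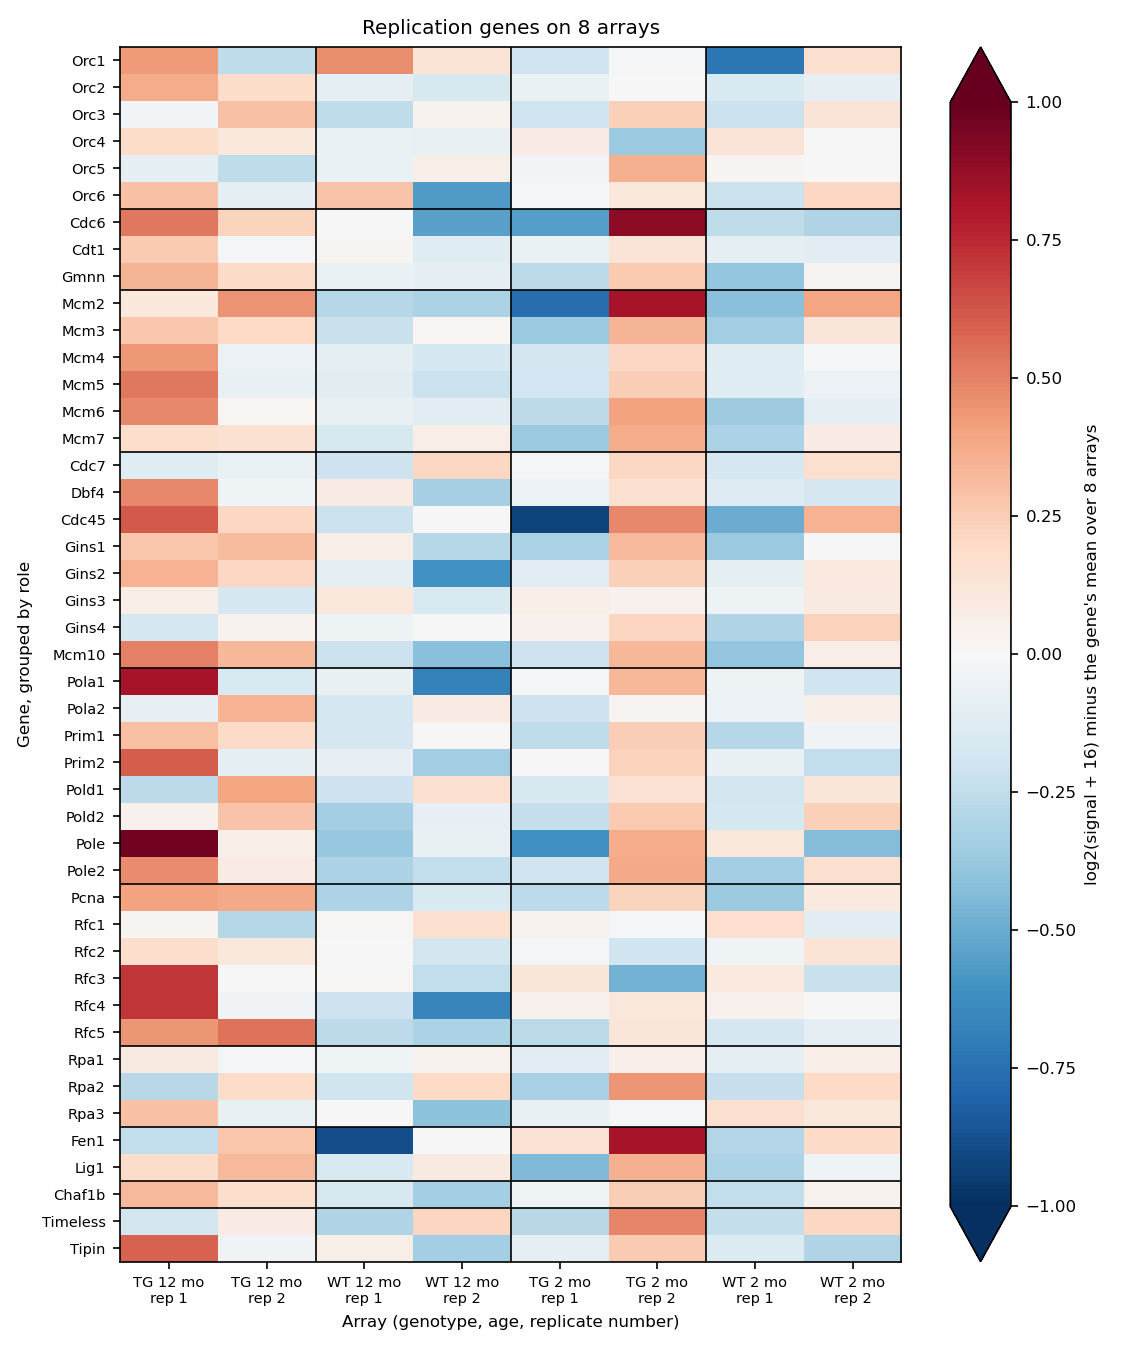
Each cell is log2(signal + 16) of 1 replication gene on 1 array minus that gene's mean over the 8 arrays (red higher, blue lower, colours end at 1 and -1), with genes grouped by role and arrays by group. The 2 TG arrays of 12 months and the replicate 2 TG array of 2 months are mostly red, and both replicate 1 arrays of 2 months mostly blue.

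Several probe sets of 1 gene gave a check on these values. For 26 of the 45 genes more than 1 probe set passed the filter. All probe sets were higher in TG mice at 12 months for 15 genes, all were lower for 2, and 9 had probe sets on both sides of 0 (Cdc45, Gins3, Orc3, Orc4, Pold1, Rfc1, Rfc2, Rpa2 and Timeless). All 6 helicase genes were among the 15. The 5 probe sets of Mcm3 gave differences of 0.34, 0.34, 0.22, 0.83 and 0.06, and the 4 of Mcm7 0.21, 0.48, 0.41 and 0.17. For Mcm2, Mcm5 and Gins2 every probe set separated the groups without overlap. Of the clamp loader, Rfc4 had 0.77 and 0.28, Rfc2 0.24, 0.08 and -0.20, and Rfc1 -0.21, 0.13 and 0.41. Cdc45 had 0.52 and -0.10. Rfc5, Pcna and Mcm10 had 1 probe set past the filter and so no such check. For 6 genes (Mcm2, Mcm3, Mcm5, Mcm7, Gins2 and Fen1) the probe set used is of a type that can bind related transcripts.

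**Figure D4:**
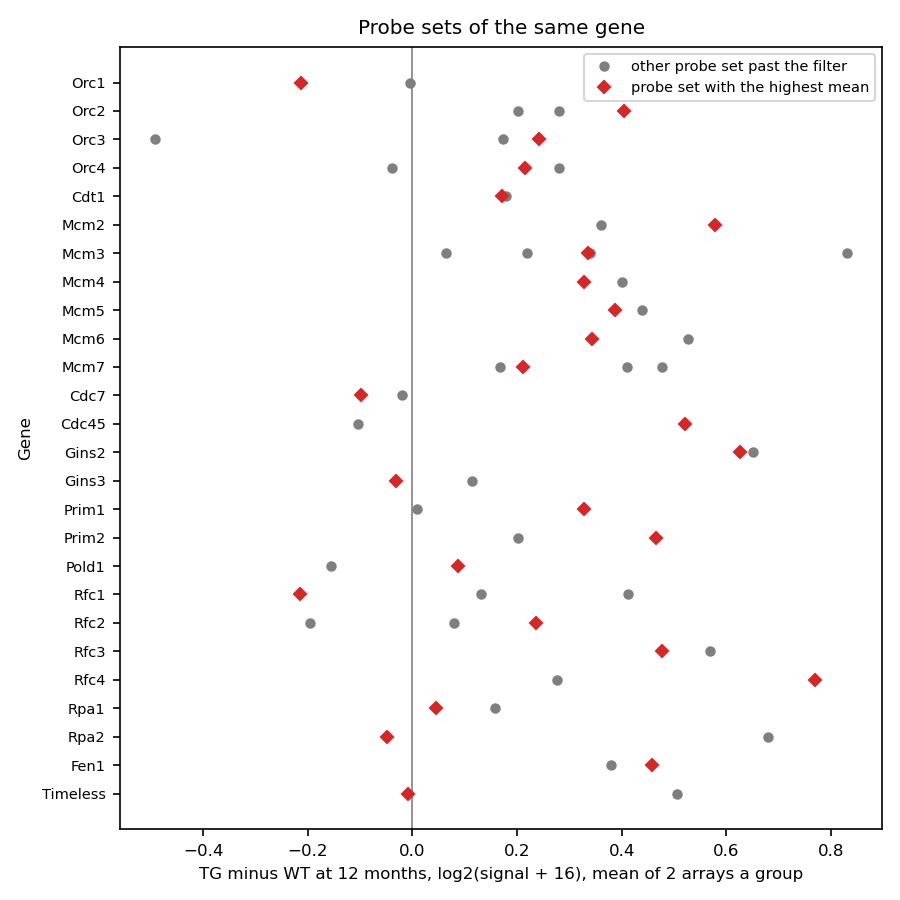
Difference between TG and WT mice at 12 months (horizontal axis, log2(signal + 16), mean of 2 arrays a group) for each probe set past the filter of the 26 genes that have several. Diamonds mark the probe set that stands for the gene, circles the others, and 9 genes have points on both sides of 0.

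At 2 months, ahead of tumours, replication genes differed little and unevenly between TG and WT mice. The mean was higher in TG mice for 36 of the 45 genes (52.5% of all genes tested), but only 19 were higher within both replicates (27.2%) and 7 without overlap (10.1%). The 7 were Orc2, Cdt1, Dbf4, Pola1, Prim2, Rfc4 and Tipin, and Rpa3 was lower without overlap (7.83%). The median difference was 0.10, made of 0.02 within replicate 1 and 0.22 within replicate 2, beside 0.01 over all genes tested. None passed the test and none had an unadjusted p under 0.05 in limma (0.295% of all genes tested were higher with such a p), and with the replicate block 1 had, Fen1 (0.992%). Fen1 had 970.1 and 1563 in TG mice, against 712 and 1006 in WT mice (0.44 within replicate 1 and 0.63 within replicate 2). Its other probe set had 366 and 577 in TG mice, against 390 and 414 in WT mice. Within replicate 1 that probe set was thus lower in TG mice. None of the 6 helicase genes was without overlap, as for Mcm5, with 1152 and 1566 in TG mice, against 1209 and 1268 in WT mice. Leaving out single mice of this age moved the median of the 45 genes to 0.34 (replicate 1 TG), -0.094 (replicate 2 TG), -0.029 (replicate 1 WT) and 0.22 (replicate 2 WT). The count without overlap became 34 when the replicate 1 TG mouse was left out and 23 when the replicate 2 WT mouse was, where a group of 1 array separates more easily by construction.

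The 2 mice of a group differed most at this age. In TG mice of 2 months 40 of the 45 genes were higher on the replicate 2 array than on the replicate 1 array (51.2% of all genes tested), with a median difference of 0.39, and in WT mice of 2 months 32 of 45 were (55.1%), with a median of 0.25. At 12 months the counts were 13 in TG mice (54.9%), with a median of -0.15, and 20 in WT mice (52%), with a median of -0.03. Most of the 45 genes were thus lower on replicate 2 in TG mice of 12 months. Mcm2 had 334 and 1031 in TG mice of 2 months, against 427 and 762 in WT mice of 2 months. Cdc6 had 118 and 348 in TG mice of 2 months, against 149 and 143 in WT mice of 2 months. Cdc45 had 54.8 and 172 in TG mice of 2 months, against 79.3 and 155 in WT mice of 2 months. These 3 genes were picked after their values were seen. Each was higher on replicate 2 in TG mice of 2 months, and Mcm2 and Cdc45 in WT mice of 2 months too.

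Markers of blood cell precursors moved with that split. The erythroid list of 8 genes summed to 5989.7 and 18368 in TG mice of 2 months, against 7025 and 12240.4 in WT mice. The neutrophil precursor list of 9 genes summed to 7772 and 25411 in TG mice, against 6458 and 20863 in WT mice. Most of the latter sum was S100a8 and S100a9, with S100a8 at 3189 and 8823 in TG mice, against 2596 and 8791 in WT mice. The dimmer Mpo had 257 and 781 in TG mice, against 198 and 412 in WT mice. The erythroid regulator Klf1 had 382 and 1116 in TG mice, against 410 and 704 in WT mice. Hba-a1 had 15.3 and 26.1 in TG mice, against 2.37 and 18.7 in WT mice, all under the dim filter's level of 45.3. In TG mice of 12 months both precursor sums were higher on replicate 2, where 13 of the 45 replication genes were. In WT mice of 12 months both sums were lower on replicate 2, where 20 of the 45 genes were higher, with a median difference of -0.03. The Gapdh ratio differed between the replicates too, at 1.07 and 1.48 in TG mice of 2 months, against 1.01 and 1.39 in WT mice of 2 months. The actin ratio went the other way, at 1.21 and 1.14 in TG mice of 2 months, against 1.24 and 1.18 in WT mice of 2 months. The part of these cells and of RNA quality in the signals was not tested.

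**Figure D5:**
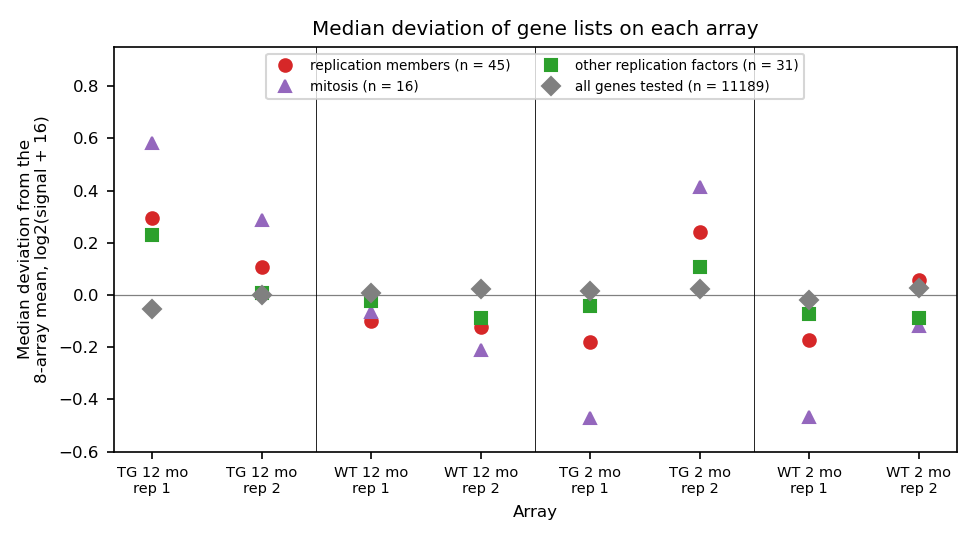
Median deviation of 4 gene lists from the genes' 8-array means (vertical axis, log2(signal + 16)) on each array. The 45 replication genes lie at 0.30 and 0.11 on the TG arrays of 12 months, at -0.10 and -0.12 on the WT arrays of 12 months, at -0.18 and 0.24 on the TG arrays of 2 months and at -0.17 and 0.06 on the WT arrays of 2 months, while the median of all genes tested runs from -0.05 to 0.03.

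Set against TG mice of 2 months, TG mice of 12 months had higher means for 37 of the 45 genes (43.7% of all genes tested), but the comparison turned with the replicate number. In these mice age and tumour stage cannot be told apart. The median was 0.55 within replicate 1 and -0.19 within replicate 2, with 9 genes higher within both replicates (21.6% of all genes tested) and 5 lower within both (33.3%). For the helicase genes replicate 1 gave a median of 0.68 and replicate 2 one of -0.29, and none was without overlap. The medians of the clamp and its loader were 0.63 within replicate 1 and 0.23 within replicate 2, with 4 of 6 genes higher within both. The exceptions were Rfc1, lower within both, and Rfc4, with 0.67 within replicate 1 and -0.15 within replicate 2. Rfc5 had 409.6 and 441 in TG mice of 12 months, against 244 and 324 in TG mice of 2 months (0.57 ± 0.19; limma, unadjusted p = 0.0174, adjusted p = 0.988). Rfc5 was the 1 gene higher with an unadjusted p under 0.05 (1.61% of all genes tested), and 0 were lower with one (3.11%). Pcna had 4982 and 4903 in TG mice of 12 months, against 3134 and 4412 in TG mice of 2 months. In all, 5 genes were higher without overlap (10.3% of all genes tested), Orc2, Orc4, Pcna, Rfc2 and Rfc5, and 3 lower (17.4%), Orc5, Cdc7 and Gins4. The count of higher genes became 32 when the replicate 2 mouse of 2 months was left out, 28 when the replicate 2 mouse of 12 months was and 9 when the replicate 1 mouse of 12 months was. A group of 1 array separates more easily by construction, and the share of all genes tested was not counted in these settings. Leaving out mice of 2 months moved the median to -0.015 (replicate 1) and 0.34 (replicate 2), and leaving out mice of 12 months to 0.076 (replicate 1) and 0.29 (replicate 2). Of all genes tested 1 passed (0.00894%), or 21 with the replicate block (0.188%), and 0 of these were replication genes. With the block 3 replication genes were higher with an unadjusted p under 0.05 (4.51% of all genes tested), Pcna, Rfc3 and Rfc5, and 1 was lower (8.87%), Fen1. The other probe set of Fen1 had 666 and 511 in TG mice of 12 months, against 366 and 577 in TG mice of 2 months. That probe set was thus higher within replicate 1 and lower within replicate 2.

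The ages were also set side by side in WT mice. WT mice of 12 months had a higher mean than WT mice of 2 months for 18 of the 45 genes (51.4% of all genes tested), with a median difference of -0.04 (0.04 within replicate 1 and -0.13 within replicate 2). No gene was higher without overlap (12.7% of all genes tested) and 5 were lower (10.9%), Orc4, Gins2, Rfc4, Rfc5 and Rpa3. Rfc4 had 146 and 102 in WT mice of 12 months, against 176 and 170.2 in WT mice of 2 months. None passed the test or had an unadjusted p under 0.05 (limma; 0.947% of all genes tested were higher with such a p). With the replicate block 0 were higher with one (2.77%) and 1 was lower, Fen1 (2.4%). The other probe set of Fen1 had 475 and 417 in WT mice of 12 months, against 390 and 414 in WT mice of 2 months. That probe set was thus higher at 12 months, within replicate 2 only slightly. Leaving out mice of 12 months gave 8 (replicate 1) and 9 (replicate 2) genes higher without overlap, leaving out mice of 2 months gave 2 (replicate 1) and 15 (replicate 2), and the median lay between -0.13 and 0.04. Here too a group of 1 array separates more easily by construction, and the share of all genes tested was not counted.

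Whether the effect of the transgene differed between the ages was tested directly. The median of the 45 differences of effects was 0.20 (0.39 within replicate 1 and 0.03 within replicate 2), beside -0.05 over all genes tested. None passed (limma), and 1 had an unadjusted p under 0.05 (0.518% of all genes tested were higher with such a p and 1.39% lower), or 3 with the replicate block, Rfc5, Rfc4 and Pcna (2.6%). The 1 without the block was Rfc5, with 0.73 ± 0.27 (unadjusted p = 0.0263, adjusted p = 1.00). It was above 0 for 36 of the 45 genes (43.7% of all genes tested), within both replicates for 19 (22.8%), and below 0 within both for 2 (32.7%). The clamp and its loader had medians of 1 sign in both replicates, 0.64 and 0.51. So did the origin recognition complex (0.12 and 0.19), helicase activation (0.24 and 0.06), the polymerases and primase (0.53 and 0.05) and Chaf1b (0.28 and 0.31). The other roles had medians of opposite signs, as for the helicase genes, with 0.56 and -0.13. With TG mice of 2 months left out in turn, the median was -0.037 (replicate 1) and 0.40 (replicate 2).

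Other genes of the same process were counted by list, for TG against WT mice at 12 months, where 0 genes of any list passed the test. Of 31 other replication factors 26 had a higher mean in TG mice and 9 were higher without overlap (29.0%, against 14.3% of all genes tested). The fork mediator gene Clspn had 295 and 199.8 in TG mice, against 167 and 134 in WT mice. Of 18 E2F and pocket protein genes 14 had a higher mean and 5 were higher without overlap (27.8%), among them the repressor E2f7, with 96.1 and 86.1 in TG mice, against 63.2 and 48.8 in WT mice, and Rbl1, which encodes the pocket protein p107, with 572 and 469 in TG mice, against 388 and 376 in WT mice. Of 10 S phase cyclins, CDKs and inhibitors 9 had a higher mean and 5 were higher without overlap (50%). The cyclin E gene Ccne1 had 464 and 684 in TG mice, against 298 and 308 in WT mice, and the inhibitor gene Cdkn1a had 243 and 339 in TG mice, against 188 and 149 in WT mice. Of 7 genes for deoxynucleotide supply 4 had a higher mean and 1 was higher without overlap (14.3%). That gene was Rrm1, the large subunit of ribonucleotide reductase, with 1119.6 and 1019.9 in TG mice, against 799.8 and 751 in WT mice. Of 9 checkpoint genes 8 had a higher mean and 2 were higher without overlap (22.2%). Of 16 mitosis genes all 16 had a higher mean and 13 were higher without overlap (81.2%), as for Kif20a, a mitotic kinesin, with 172 and 147 in TG mice, against 92.9 and 63.0 in WT mice. The median difference was 0.63 for the mitosis list and 0.26 for the other replication factors, beside 0.34 for the 45 replication genes.

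The promoters of the replication genes were searched for 4 motifs. For E2F the letters searched were TTTCCCGC, TTTCGCGC, TTTGCCGC and TTTGGCGC on both strands, overlapping matches counted apart, in windows from 250 bases before to 50 bases after each annotated start (RefSeq, GRCm38.p6). A promoter window was found for 37 of the 46 genes, and 14 of these (37.8%) held a match, where 4.66% of 9069 tested genes with a window did. The CCAAT motif of NF-Y was in 59.5% of the 37 genes and in 42.6% of tested genes, the CHR element TTTGAA in 18.9% of the 37 genes and in 14.3% of tested genes, and the E-box CACGTG in 18.9% of the 37 genes and in 11.7% of tested genes. A match describes letters and is not a binding site. Among measured genes with a window, 7 of the 14 with an E2F match and 11 of the 22 without one were higher in TG mice of 12 months without overlap, with median differences of 0.31 and 0.34. The 250 bases before the start are shown for 4 genes, written 5′ to 3′ on the gene's strand with E2F matches in capitals. Mcm6 and Rfc3 have a match and a positive difference, with groups that just overlapped for Rfc3. Gins3 has a match and overlapping groups, and Rfc5 no match and the smallest p. Adjoining capitals in Mcm6 hold 2 overlapping matches.
Mcm6 (chr1:128359706-128359955, minus strand): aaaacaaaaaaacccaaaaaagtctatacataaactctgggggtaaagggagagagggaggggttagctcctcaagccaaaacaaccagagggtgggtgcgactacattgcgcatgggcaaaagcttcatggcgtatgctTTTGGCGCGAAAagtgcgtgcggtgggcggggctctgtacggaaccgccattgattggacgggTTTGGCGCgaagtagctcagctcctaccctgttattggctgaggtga
Rfc3 (chr5:151651209-151651458, minus strand): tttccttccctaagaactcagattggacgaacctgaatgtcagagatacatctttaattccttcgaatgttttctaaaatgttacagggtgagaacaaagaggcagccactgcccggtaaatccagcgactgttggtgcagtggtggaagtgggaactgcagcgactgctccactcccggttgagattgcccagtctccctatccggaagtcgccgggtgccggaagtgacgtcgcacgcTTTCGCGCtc
Gins3 (chr8:95633309-95633558, plus strand): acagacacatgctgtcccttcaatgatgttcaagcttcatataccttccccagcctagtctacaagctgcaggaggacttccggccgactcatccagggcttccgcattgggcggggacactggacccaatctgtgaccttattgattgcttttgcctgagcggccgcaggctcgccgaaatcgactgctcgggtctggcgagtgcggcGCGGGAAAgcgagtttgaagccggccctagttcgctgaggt
Rfc5 (chr5:117389024-117389273, minus strand): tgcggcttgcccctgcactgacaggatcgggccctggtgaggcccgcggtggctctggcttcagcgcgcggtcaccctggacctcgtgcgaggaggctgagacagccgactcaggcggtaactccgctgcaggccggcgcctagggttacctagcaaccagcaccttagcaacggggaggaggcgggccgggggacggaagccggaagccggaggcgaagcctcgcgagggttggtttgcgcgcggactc
The Mcm6 matches begin 110, 106 and 47 bases before the start, that of Rfc3 (1 of 2 in its window) 10 bases and that of Gins3 41 bases before it. Mcm6, with 3 matches, had a difference of 0.34 at 12 months, and Rfc5, with none in the window, had 0.78.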

How the data were processed

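The authors deposited linear intensities per probe set for each mouse's array, made with GCOS 1.4 and MAS5 per the submitters' processing notes. All 8 arrays have a trimmed mean of 150.001, so they were scaled to a common level. Symbols were updated through gene identifiers to RefSeq names (GRCm38.p6). Probe sets with a mean log2(signal + 16) under the median of all 45101 were dropped, and 1 probe set per gene was kept, that with the highest mean, which gave 11189 genes. A model of 4 group means was fitted to all 8 arrays (limma 3.58.1 in R 4.3.3, lmFit and eBayes with an intensity trend, 4 residual degrees of freedom), with 2-sided p-values, Benjamini-Hochberg adjustment over all genes and a threshold of 0.05. It was checked on simulated data with independent noise, which lack the shared deviation of same-numbered arrays seen here. No overlap means that both arrays of 1 group lie on 1 side of both of the other. Values ± SE are log2 differences. Where nothing says more, the 2 mice of a group are the replicates. The p-values rest on 1 spread per gene, pooled over the 4 groups and moderated across genes. Without the block, differences between the replicate numbers stay in that spread.

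The replicate numbers come from the sample titles. Each group's gene-wise gap between its mice went with that of every other group (r across genes from 0.464 to 0.654). The numbers were therefore taken as pairs for the differences within a replicate, and a block is the alternative to the fit without one. The members and lists were chosen with earlier results of these data known. All members are accounted for, and every array's signal is given for up to 3 genes per role with the smallest p at 12 months and for those with the largest signal, with up to 3 genes from each other list. Other members' signals were picked after their values were seen. Log2 differences are given for members that differ by at least 0.1. Alternatives changed the pseudocount, the filter, the scaling, the probe sets, the trend, the block and single arrays. Leaving out probe set types that can bind related transcripts was chosen after seeing the data. The transgene's own level was not analysed here.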

Additional observations from a re-analysis of the deposited data

Results flagged for a closer look

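For Rfc5 and Orc4 the ages moved in opposite directions in the 2 genotypes, in every mouse. Of all genes tested 10.3% were higher without overlap at 12 than at 2 months in TG mice. In WT mice 10.9% were lower, and the share of genes with both was not counted, so the 2 genes have no background to be read against. Rfc5 had 409.6 and 441 in TG mice of 12 months, against 244 and 324 in TG mice of 2 months, and 245 and 235 in WT mice of 12 months, against 263 and 278 in WT mice of 2 months. The difference of the transgene's effects was 0.73 (0.81 within replicate 1 and 0.65 within replicate 2), which missed the test (limma, adjusted p = 1.00). Orc4 had 278 and 262 in TG mice of 12 months, against 258 and 184 in TG mice of 2 months, and 231 and 230.3 in WT mice of 12 months, against 267 and 243 in WT mice of 2 months. Its difference of effects was 0.42, which missed the test too. Among the 3 probe sets of Orc4, 1 had a negative difference between TG and WT mice of 12 months, at -0.04.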

How the results depend on the processing

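Each result was computed again under 18 alternatives. With the replicate block, which treats same-numbered mice as pairs, 5 genes passed for TG against WT mice at 12 months and 21 for 12 against 2 months in TG mice, 12 replication genes had an unadjusted p under 0.05 at 12 months and 3 for the difference of effects. Unadjusted p under 0.05 with the block were also reached by Fen1 at 2 months and by Pcna, Rfc3, Rfc5 and Fen1 for age in TG mice. Fen1 also reached one for age in WT mice, and no replication gene passed after adjustment. These Fen1 results rest on 1 of its 2 probe sets past the filter, and the other did not follow them in both replicates. With log2(signal + 1), 0 genes passed for age in TG mice. The count of replication genes higher without overlap was 4 at 2 months after cyclic loess, and 3 for age in TG mice with the mean of all probe sets. For age in WT mice it was 2 after quantile normalization, 2 after cyclic loess, 4 with the mean of all probe sets and 1 without probe sets that can bind related transcripts, an alternative chosen after seeing the data. Leaving out each array in turn, genes passing at 12 months numbered 0 to 7, the median ran from 0.22 to 0.41, the count without overlap from 24 to 33 and that with an unadjusted p under 0.05 from 1 to 12. At 2 months these were 0 to 2 genes, -0.094 to 0.34, and 7 to 34. The difference of effects had 0 to 0 genes, -0.04 to 0.40, and 0 to 3 replication genes. Age had 0 to 4 genes, -0.02 to 0.34, and 5 to 32 in TG mice, and 0 to 4 genes, -0.13 to 0.04, and 0 to 15 in WT mice. Of 711 values for 40 single-gene results, 706 kept their sign and side of the threshold and 5 turned at 12 months. Without the replicate 2 TG mouse of 12 months Orc1 had 0.13 (-0.55 without the replicate 1 TG mouse) and Pola2 -0.032, without the replicate 2 WT mouse of 12 months Orc6 had -0.18 (0.67 without the replicate 1 WT mouse), and with the mean of all probe sets Orc3 had -0.026 and Rfc1 0.11. The cause was not tested. With an array left out, a group of 1 array separates more easily by construction. The shares of all genes tested were not counted in those settings. The number of arrays, 2 in each group, limits all of these values.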
